A study of Mus musculus with 8 samples.

Results

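The genes described here are the tumour suppressor p53 (Trp53) and 8 of its best known transcriptional targets, Mdm2, Trp53inp1, Ccng1, Sesn1, Gadd45a, Zmat3, Phlda3 and Perp. They were chosen by name and not by a rule on measured values, but earlier results of these data were known by then. Of these 9 genes 8 were measured, each by 1 probe, among 15095 genes with a symbol on the arrays. Trp53 itself was not analysed here, so that no value below is a level of p53. The cells were CTL-EN, a mouse T cell line, that expressed the human GM-CSF receptor common beta chain either with a serine changed to glycine (Ser585Gly, "S" in the labels) or as the wild type. RNA at 12 h came from cells given human GM-CSF (granulocyte-macrophage colony-stimulating factor) at 50 ng/mL for 12 h, and RNA at 0 h came from cells that had only been deprived of factor for 12 h in RPMI with 0.5% serum. All 4 cell states shared that deprivation. The 8 two-colour arrays formed a square of 4 comparisons, which were 12 h over 0 h in Ser585Gly cells, 12 h over 0 h in wild-type cells, Ser585Gly over wild type at 12 h, and Ser585Gly over wild type at 0 h. Each was hybridised in 2 dye orientations. No array held cells kept for the same 12 h without GM-CSF, and the effects of GM-CSF and of the passing of time cannot be told apart. The labels do not say whether a receptor line was a single clone or a pool, nor how the receptor was introduced.

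p53 is a transcription factor that DNA damage, oncogene activity and other stresses stabilise, and it switches on genes that stop the cell cycle, limit growth signalling, aid repair or favour cell death. Mdm2 is both a target and the ubiquitin ligase that marks p53 for degradation, which closes a negative feedback loop. In lymphoid cells p53 is best known for the cell death that follows DNA damage, while cytokines such as GM-CSF act through JAK-STAT, PI3K and ERK signalling to keep factor-dependent cells alive. Several of these genes, among them Sesn1, Gadd45a and Trp53inp1, are also reached by stress-responsive transcription factors other than p53, so that their RNA is not a readout of p53 alone.

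Promoters are shown for 4 of the genes. In these, 2 genes that fell with time (Gadd45a and Sesn1) stand beside 2 that passed no test in the main fit (Mdm2 and Ccng1). RefSeq promoter windows (build GRCm38.p6, 250 bases before to 50 after a gene start) were at hand for 5 of the 8 measured genes. None was at hand for Trp53inp1, Zmat3 or Perp. The windows were searched for the p53 consensus half-site, a 10-base pattern that reads the same on both strands, with no mismatch allowed. Gadd45a, Sesn1, Mdm2 and Ccng1 each held 1 half-site, in capitals below. The Phlda3 window and the other Sesn1 window held none. Of all 32851 windows in the table, 8.36% held at least 1, which is a share of windows and not of genes. The half-site began 40 bases before the gene start in Gadd45a, 173 in Sesn1, 186 in Mdm2 and 185 in Ccng1. A match of letters is a description of the sequence, and binding was not measured. Each match is a single half-site, and sequence outside the windows was not searched. The capitals are therefore not shown to be the sites through which p53 acts on these genes. The windows, printed 5′ to 3′ along each gene, are chr6:67037358-67037657 on the minus strand for Gadd45a, chr10:41887189-41887488 on the plus strand for Sesn1, chr10:117710709-117711008 on the minus strand for Mdm2 and chr11:40755237-40755536 on the minus strand for Ccng1.
Gadd45a: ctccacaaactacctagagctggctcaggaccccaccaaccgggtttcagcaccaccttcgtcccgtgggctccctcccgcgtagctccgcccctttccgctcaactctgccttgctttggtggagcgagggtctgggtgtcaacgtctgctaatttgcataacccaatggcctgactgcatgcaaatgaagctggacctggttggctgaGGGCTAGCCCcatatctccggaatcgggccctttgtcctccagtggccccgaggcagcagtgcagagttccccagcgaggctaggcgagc
Sesn1: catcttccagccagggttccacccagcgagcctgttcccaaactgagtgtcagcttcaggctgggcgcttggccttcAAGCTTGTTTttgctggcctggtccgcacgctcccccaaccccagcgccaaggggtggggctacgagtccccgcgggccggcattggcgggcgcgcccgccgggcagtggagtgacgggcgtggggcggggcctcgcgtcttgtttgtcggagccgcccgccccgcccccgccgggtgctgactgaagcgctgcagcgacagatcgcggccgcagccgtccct
Mdm2: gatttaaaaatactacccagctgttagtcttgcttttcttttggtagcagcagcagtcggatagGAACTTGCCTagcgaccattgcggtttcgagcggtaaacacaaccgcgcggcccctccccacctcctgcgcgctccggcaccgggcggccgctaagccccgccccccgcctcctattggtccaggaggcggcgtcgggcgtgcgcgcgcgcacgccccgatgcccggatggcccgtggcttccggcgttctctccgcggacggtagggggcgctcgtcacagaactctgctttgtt
Ccng1: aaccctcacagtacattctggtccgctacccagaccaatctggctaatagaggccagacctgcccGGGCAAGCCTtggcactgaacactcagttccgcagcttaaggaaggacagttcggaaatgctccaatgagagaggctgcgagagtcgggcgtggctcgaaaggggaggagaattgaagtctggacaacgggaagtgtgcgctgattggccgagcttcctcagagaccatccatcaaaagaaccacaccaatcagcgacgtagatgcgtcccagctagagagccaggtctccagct

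Gene names rest on a print order with 24 pins, since the deposited names follow an order with 48 pins that did not match the spots. In the recovered order the time responses of 905 genes with a pair of probes correlated between their probes at 0.36 in Ser585Gly and 0.32 in wild type, against −0.10 and −0.02 in the deposited order. Of the 21776 gene probes placed, 90.3% had their spot of the deposited order as the nearest by values. So did 6 of the 8 genes described here, all but Sesn1 and Phlda3. That match shows which spots the deposited values came from and does not test the names of the recovered order. All 8 genes were above the 95th percentile of 244 empty wells, with mean brightness between the 27.0th percentile of gene probes (Gadd45a) and the 86.1st (Ccng1). The label of a T cell line was checked on marker genes, and 12 of 12 T cell markers were above the array median, against 3 of 7 myeloid, 0 of 5 B cell, 2 of 6 fibroblast and 1 of 4 erythroid markers. Among T cell markers 2 rose and 2 fell with time in each line. Ptprc, which encodes the leukocyte phosphatase CD45, was lower in Ser585Gly cells, with log2 ratios of −1.73 at 12 h and −1.59 at 0 h, and was the only T cell marker of the 12 called in those comparisons. Of the other markers, Fcgr3, a myeloid Fc receptor, was higher in Ser585Gly, at 0.85 at 12 h and 0.87 at 0 h, Hba-a1, an alpha globin, fell with time, at −0.49 in Ser585Gly and −0.45 in wild type, and Csf3r, the G-CSF receptor, rose with time by 0.57 in wild type. With dye-swap pairs averaged, of these other calls only that of Fcgr3 at 0 h held (adjusted p = 0.0451). The part of these cell type markers in the results was not tested. Turned to one direction, the dye-swap arrays correlated across probes at 0.51 for time in both lines, but only at 0.22 for the mutation at 12 h and 0.12 at 0 h. No separate cultures or extracts are named, so that p-values measure the spread between hybridisations, which may be technical.

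After 12 h with GM-CSF, Trp53inp1 and Sesn1 fell in both lines and Gadd45a fell in Ser585Gly cells. Mdm2, Ccng1, Zmat3, Phlda3 and Perp passed the test in neither line, and no gene of the 8 rose. That gave 3 lower and 0 higher of 8 in Ser585Gly, against 4.72% lower and 5.74% higher of all 21776 probes, and 2 lower and 0 higher in wild type, against 4.03% and 5.43%. The median log2 ratio of the 8 genes was −0.15 in Ser585Gly and −0.21 in wild type, beside 0.01 and −0.01 over all probes. Calls are at an adjusted p under 0.05 (limma over all 8 arrays, Benjamini-Hochberg over all probes, two-sided), and errors are standard errors of that fit. In RNA of a whole culture, fewer cells with a transcript and less of it per cell cannot be told apart.

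Trp53inp1 encodes a stress protein that p53 induces, which aids p53 phosphorylation and acts in autophagy. Its log2 ratio of 12 h over 0 h was −2.39 and −2.44 on the Ser585Gly arrays, against −1.75 and −1.99 on the wild-type arrays. All 4 arrays were strongly negative, and the pair of arrays differed by 0.05 in Ser585Gly and 0.25 in wild type. The fit gave −2.09 ± 0.23 in Ser585Gly (4.26-fold lower, adjusted p = 0.00148) and −2.20 ± 0.23 in wild type (4.59-fold lower, adjusted p = 0.00113). These were the 3rd lowest ratio of all probes in Ser585Gly and the 8th lowest in wild type. With each dye-swap pair averaged to 1 value, the adjusted p was 0.0131 in Ser585Gly and 0.0114 in wild type. Over 19 other settings, the ratio ran from −2.42 to −1.54 in Ser585Gly and from −2.57 to −1.62 in wild type and passed the test in each of them. Its ratios failed to add up around the square of 4 comparisons by 1.31 on the log2 scale, while its dye-swap pairs differed by 0.05 to 0.35. The standard errors include the misfit but treat the 8 arrays as independent. The size of the fall is therefore less certain than they say.

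**Figure D1:**
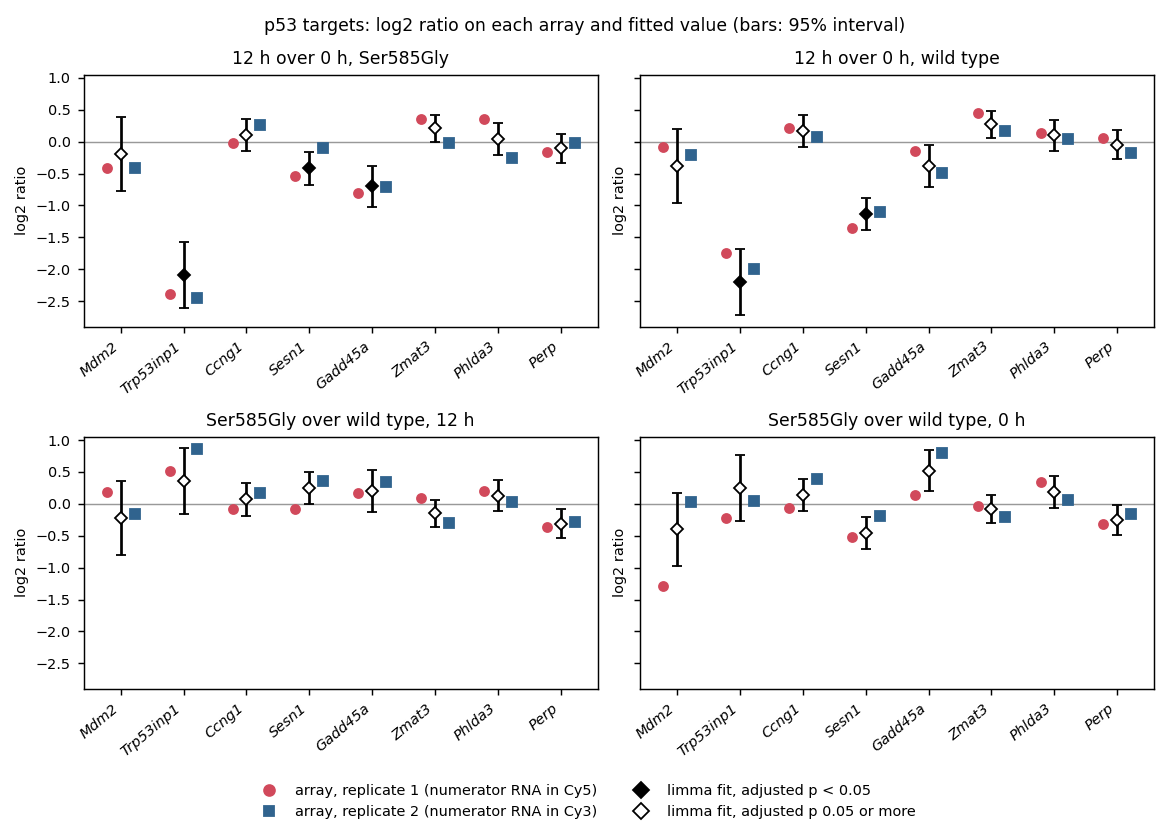
Log2 ratio (vertical axis) of each of the 8 genes (horizontal axis) in the 4 comparisons. Red circles are arrays with the Ser585Gly or 12 h RNA in Cy5, blue squares those with it in Cy3, and diamonds are fitted values with 95% intervals, filled where the adjusted p was under 0.05. Filled diamonds stand at Trp53inp1, Sesn1 and Gadd45a for time in Ser585Gly and at Trp53inp1 and Sesn1 for time in wild type. The lone circle at −1.28 for the mutation at 0 h is Mdm2.

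Sesn1 encodes a sestrin, a stress-induced inhibitor of the growth regulator mTORC1 that also limits oxidative damage. Its ratio of 12 h over 0 h was −0.54 and −0.10 on the Ser585Gly arrays, against −1.35 and −1.11 on the wild-type arrays. All 4 ratios were below 0, and both wild-type values lay below both Ser585Gly values. The fitted ratio was −0.42 ± 0.11 in Ser585Gly (1.34-fold lower, adjusted p = 0.0463) and −1.13 ± 0.11 in wild type (2.18-fold lower, adjusted p = 0.000852). The wild-type call stood in all 19 other settings. The Ser585Gly call was lost in 12 of them, among these the averaging of dye-swap pairs (adjusted p = 0.134, against 0.0124 in wild type) and the use of the direct arrays alone (−0.32, adjusted p = 0.190). The difference of the 2 time responses, Ser585Gly minus wild type, was 0.71 ± 0.13 and did not pass (unadjusted p = 0.000451, adjusted p = 0.248). It passed with print-tip loess (0.70, adjusted p = 0.0387) and in the deposited log2 table (0.67, adjusted p = 0.0191). These 2 settings called 49 and 90 of all probes for the difference, against 12 in the main fit.

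Gadd45a encodes a small protein that links growth arrest and DNA damage to stress kinase signalling. Its ratio of 12 h over 0 h was −0.81 and −0.71 on the Ser585Gly arrays, against −0.14 and −0.50 on the wild-type arrays. All 4 arrays were below 0 and the lines did not overlap. The fit gave −0.70 ± 0.14 in Ser585Gly (1.63-fold lower, adjusted p = 0.0177) and −0.38 ± 0.14 in wild type (95% interval −0.70 to −0.05, adjusted p = 0.149). The wild-type ratio was −0.61 without replicate 1 of the wild-type time arrays (adjusted p = 0.0952) and −0.24 without replicate 2 (adjusted p = 0.622). The Ser585Gly call held with dye-swap pairs averaged (adjusted p = 0.0283). It was lost without replicate 1 of the Ser585Gly time arrays (−0.68, adjusted p = 0.180) and without replicate 2 (−0.64, adjusted p = 0.126). The difference of the 2 responses was −0.32 ± 0.16 (adjusted p = 0.755), so that Gadd45a was not shown to respond differently in the lines. Gadd45a was the dimmest of the 8 genes. Its raw foreground was 301 to 1136 units over the 16 channels, against local backgrounds of 6 to 174.

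The other 5 genes did not pass the test for time. Mdm2 was at −0.41 and −0.42 on the Ser585Gly arrays, against −0.09 and −0.22 on the wild-type arrays. All 4 arrays were slightly negative. The fit gave −0.19 ± 0.25 in Ser585Gly (95% interval −0.77 to 0.39, adjusted p = 0.723) and −0.38 ± 0.25 in wild type (−0.96 to 0.20, adjusted p = 0.428), and 1 array of another comparison moved it. Without replicate 1 of Ser585Gly over wild type at 0 h, the Ser585Gly time ratio was −0.39 and passed (adjusted p = 0.0285). That setting called 3429 of all probes for time in Ser585Gly, against 2277 in the main fit. Ccng1, which encodes cyclin G1, a binding partner of the phosphatase PP2A, had fitted ratios of 0.10 (−0.15 to 0.35) in Ser585Gly and 0.17 (−0.09 to 0.42) in wild type. Zmat3, a zinc finger protein that binds RNA, was at 0.21 (−0.01 to 0.42) in Ser585Gly and 0.27 (0.06 to 0.49, adjusted p = 0.118) in wild type. The wild-type value of Zmat3 passed with print-tip loess (adjusted p = 0.0404), in the deposited table (adjusted p = 0.0448) and without replicate 1 of Ser585Gly over wild type at 0 h (adjusted p = 0.0440). Print-tip loess, the deposited table and the fit without that array called 4077, 4175 and 3302 of all probes for time in wild type, against 2061 in the main fit. Phlda3, a pleckstrin homology domain protein that competes with Akt for membrane lipids, was at 0.04 (−0.20 to 0.29) in Ser585Gly and 0.10 (−0.14 to 0.35) in wild type. Perp, a membrane protein of cell death and of desmosomes, was at −0.11 (−0.34 to 0.12) in Ser585Gly and −0.05 (−0.28 to 0.18) in wild type. The 95% intervals of Ccng1, Zmat3, Phlda3 and Perp reached no lower than −0.34, short of the fall of Trp53inp1 in either line and of Sesn1 in wild type.

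Between the lines no gene of the 8 passed the test at either time (limma). At 12 h 0.918% of all probes passed as higher and 0.799% as lower in Ser585Gly, and at 0 h 2.07% and 2%. An unadjusted p under 0.05 was reached by 1 gene at 12 h, Perp, against 2839 of all 21776 probes. It was reached by 3 genes at 0 h, Gadd45a, Sesn1 and Perp, against 4907 of all probes. At 12 h Trp53inp1 had the highest ratio of Ser585Gly over wild type (arrays 0.51 and 0.85, fit 0.35 ± 0.23, 95% interval −0.17 to 0.87, adjusted p = 0.589) and Perp the lowest (arrays −0.37 and −0.28, fit −0.31 ± 0.10, −0.54 to −0.08, adjusted p = 0.223). Both arrays of each gene lay on the same side of 0. At 0 h Gadd45a was at 0.14 and 0.79 on the arrays and 0.52 ± 0.14 in the fit (0.20 to 0.85, adjusted p = 0.0823). Sesn1 was at −0.52 and −0.19 on the arrays and −0.46 ± 0.11 in the fit (−0.71 to −0.21, adjusted p = 0.0571). Perp was at −0.32 and −0.16, with a fitted −0.25 ± 0.10 (−0.48 to −0.02, adjusted p = 0.186). So 2 genes leaned lower in Ser585Gly and 1 leaned higher, each on both arrays, and none passed. Print-tip loess brought 3 genes past the threshold at 0 h, with Gadd45a at 0.86 (adjusted p = 0.00138), Sesn1 at −0.48 (adjusted p = 0.00897) and Ccng1 at 0.40 (adjusted p = 0.0308). The same 3 passed in the deposited table. The deposited ratios lay close to ratios made by background subtraction, print-tip loess and scaling (per-array correlation 0.948 to 0.996). Print-tip loess and the deposited table are therefore not independent checks. They called 2043 and 2551 of all probes at 0 h, against 886 in the main fit.

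Of the 8 genes, Mdm2 at 0 h had the dye-swap pair that disagreed most. Its ratio of Ser585Gly over wild type was −1.28 with Ser585Gly in Cy5 and 0.03 with Ser585Gly in Cy3, a gap of 1.32, where the median gap of all probes was 0.37. On the first of these arrays the raw foreground was 581 in the Ser585Gly channel and 1365 in the wild-type channel, and on the second it was 1067 in Ser585Gly and 869 in wild type. The fitted ratio was −0.40 ± 0.25 (adjusted p = 0.375) and turned to 0.18 (adjusted p = 0.487) without the first array. At 12 h the Mdm2 ratio was 0.18 and −0.16 on the arrays and −0.22 ± 0.25 in the fit (adjusted p = 0.795). No direction can be given for Mdm2 between the lines.

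Across the difference of the 2 time responses 0 of the 8 genes passed, against 0.0551% of all probes. At an unadjusted p under 0.05 there was 1, Sesn1, against 1527 of all 21776 probes. The other 7 genes lay between −0.32 (Gadd45a) and 0.19 (Mdm2).

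The square allows a check within a gene, since the ratio of Ser585Gly at 12 h over wild type at 0 h can be summed by way of Ser585Gly at 0 h or of wild type at 12 h, from different arrays. For Trp53inp1 the sums were −2.50 and −1.19, a gap of 1.31 at the 99.6th percentile of absolute gaps, whose median over all probes was 0.20. Both sums were below 0. For Mdm2 the sums were −1.04 and −0.14, a gap of 0.90 (97.6th percentile). For Sesn1 they were −0.67 and −1.08. The gaps of the other 5 genes were at most 0.23 in size.

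**Figure D2:**
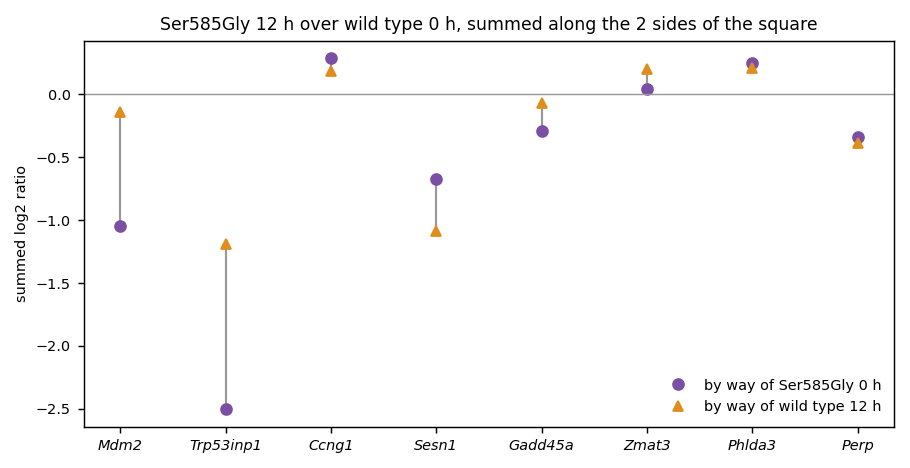
Summed log2 ratio of Ser585Gly at 12 h over wild type at 0 h (vertical axis) for each gene (horizontal axis), by way of Ser585Gly at 0 h (circles) and of wild type at 12 h (triangles), each from 4 arrays. The grey line joins the sums of a gene. It is long for Trp53inp1 (1.31) and Mdm2 (0.90) and short for Phlda3 (−0.03) and Perp (−0.05).

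Levels of single channels, on a log2 intensity scale after quantile normalisation of mean intensities between arrays, showed the same order of times for the called genes. Each condition had 4 channels. For Trp53inp1 the level was 8.92 ± 0.27 in Ser585Gly at 12 h (SD, 4 channels) and 11.28 ± 0.28 in Ser585Gly at 0 h, and 8.21 ± 0.36 in wild type at 12 h and 10.68 ± 1.03 in wild type at 0 h. The 12 h channels did not overlap the 0 h channels in either line, with a highest 12 h level of 9.23 in Ser585Gly and 8.73 in wild type and a lowest 0 h level of 11.05 in Ser585Gly and 9.65 in wild type. At 0 h the lines overlapped.

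Sesn1 was at 10.52 ± 0.59 in Ser585Gly at 12 h and 11.55 ± 1.07 at 0 h, which overlapped, and at 10.29 ± 0.31 in wild type at 12 h and 12.03 ± 0.89 at 0 h, which did not. Gadd45a was at 8.35 ± 0.29 in Ser585Gly at 12 h and 9.26 ± 0.55 at 0 h, which did not overlap, and at 8.16 ± 0.23 in wild type at 12 h and 8.74 ± 0.56 at 0 h, which did. Levels of a probe compare different arrays, whose spots differ, and are less exact than the ratios within an array. For Mdm2 the 2 scales pointed apart in both lines. Its level was 11.43 ± 0.52 in Ser585Gly at 12 h and 10.51 ± 1.17 at 0 h, and 11.13 ± 0.83 in wild type at 12 h and 10.39 ± 0.36 at 0 h. Its ratio was below 0 on every array that held both times of a line. For the remaining 4 genes the means of the 4 conditions spanned 11.32 to 11.50 (Ccng1), 9.56 to 10.45 (Zmat3), 9.31 to 10.09 (Phlda3) and 10.27 to 10.79 (Perp). In both lines the 12 h mean lay below the 0 h mean for Ccng1 and Phlda3 and above it for Perp. Their fitted time ratios, which did not pass, had the opposite signs. These levels carry no test and come from the same 8 arrays as the ratios, so that they add no separate support. How many of all probes separate the times likewise was not counted.

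**Figure D3:**
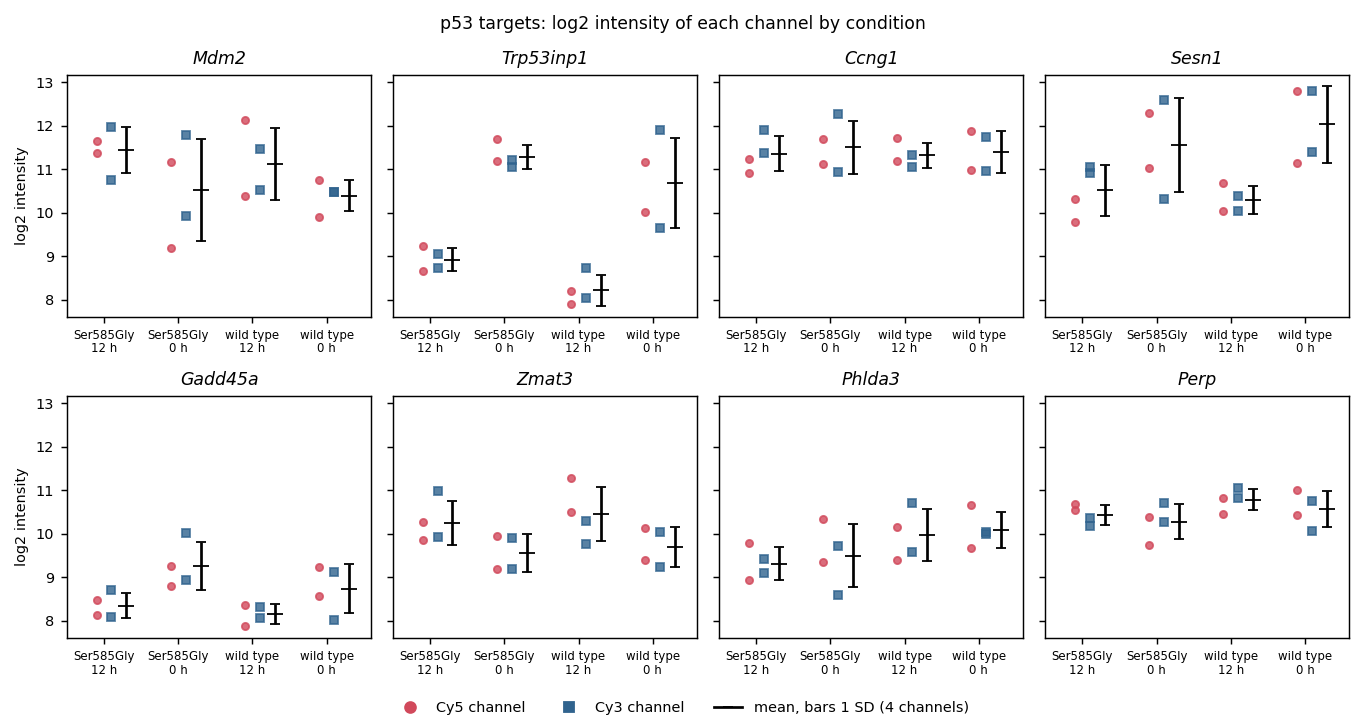
Log2 intensity (vertical axis) of each of the 16 channels by condition (horizontal axis), 1 panel per gene, with Cy5 as circles, Cy3 as squares, and mean and SD of 4 channels beside them. Trp53inp1 separates 12 h from 0 h in both lines, Sesn1 in wild type and Gadd45a in Ser585Gly.

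Of 40 other p53 targets measured, 1 rose and 6 fell with time in Ser585Gly, and 2 rose and 6 fell in wild type. Genes placed in the lists of regulators and paralogs below are not in these counts, though some may be p53 targets too. The counts therefore depend on how the lists were drawn. Over all probes 5.74% rose and 4.72% fell in Ser585Gly, and 5.43% rose and 4.03% fell in wild type. With dye-swap pairs averaged the counts were 1 higher and 3 lower in Ser585Gly and 0 higher and 2 lower in wild type. In that setting 1355 of all 21776 probes were called in Ser585Gly (58.6% of them higher) and 1075 in wild type (58.3% higher). The median log2 ratio of the 40 targets in the main fit was −0.11 in Ser585Gly and −0.01 in wild type, beside 0.01 and −0.01 over all probes. Btg2, an antiproliferative gene, fell, at −1.29 in Ser585Gly and −1.82 in wild type. Apaf1, the core of the apoptosome, fell, at −0.83 in Ser585Gly and −0.65 in wild type. Ddit4, an inhibitor of mTORC1 also known as REDD1, fell, at −0.97 in Ser585Gly and −0.47 in wild type. In Ser585Gly Bbc3, which encodes the death protein PUMA, also fell by 0.50 (adjusted p = 0.0258), and Pidd1, a death-domain adaptor, rose by 0.40 (adjusted p = 0.0321). In wild type Steap3, a metalloreductase, fell by 0.54 on 1 of its 2 probes (adjusted p = 0.0486), the death receptor gene Fas rose by 0.61 (adjusted p = 0.0318) and the kinase gene Plk3 by 0.60 (adjusted p = 0.0240). With dye-swap pairs averaged the calls of Bbc3, Pidd1, Steap3, Fas, Plk3 and, in wild type, Ddit4 were lost (adjusted p of 0.0542 to 0.118). Cdkn1a, which encodes the cell cycle inhibitor p21 and is the target most often used to read p53 activity, is named here outside the rule on named genes. It was at −0.57 in Ser585Gly (adjusted p = 0.0532) and −0.36 in wild type (adjusted p = 0.194).

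Between the lines 0 other targets were higher and 1 lower in Ser585Gly at 12 h, and 2 were higher and 1 lower at 0 h. Over all probes 0.918% were higher and 0.799% lower at 12 h, and 2.07% and 2% at 0 h. Casp1, an inflammatory caspase, was lower in Ser585Gly, at −0.65 at 12 h and −0.58 at 0 h. Ddit4 was higher in Ser585Gly by 0.82 at 0 h (adjusted p = 0.00647). Tnfrsf10b, a death receptor for TRAIL, was higher by 0.43 at 0 h on 1 of its 2 probes. The Casp1 and Tnfrsf10b calls were lost with pairs averaged (adjusted p of 0.0723 to 0.112).

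Of 38 measured regulators and partners of p53, 5 rose and 1 fell with time in Ser585Gly, and 2 rose and 2 fell in wild type. The shares over all probes were 5.74% higher and 4.72% lower in Ser585Gly and 5.43% and 4.03% in wild type. With pairs averaged the counts were 3 higher and 2 lower in Ser585Gly and 1 higher and 0 lower in wild type. That setting called 1355 of all 21776 probes in Ser585Gly (58.6% of them higher) and 1075 in wild type (58.3% higher). Mybbp1a, a nucleolar protein that promotes p53 acetylation, rose by 0.86 in Ser585Gly and 0.65 in wild type. In Ser585Gly the nucleolar protein gene Ncl rose by 0.86 on 1 of its 2 probes, the checkpoint kinase gene Chek1 by 0.79 and Rps27l, a ribosomal protein relative that binds Mdm2, by 0.54. Ing1, a chromatin reader that works with p53, fell, at −0.59 in Ser585Gly and −0.60 in wild type, on 1 of its 2 probes. In wild type the DNA repair gene Brca1 fell by 0.55. With pairs averaged the calls of Rps27l in Ser585Gly and of Ing1 and Brca1 in wild type were lost (adjusted p of 0.0538 to 0.0630). Cdkn2a, whose locus encodes the Mdm2 inhibitor Arf and the cell cycle inhibitor p16, was higher in Ser585Gly than in wild type by 1.32 at 12 h (adjusted p = 0.00130) and 1.64 at 0 h (adjusted p = 0.000417). The probe was not assigned to either product, and both calls held with pairs averaged (adjusted p = 0.0149 and 0.00951). With time Cdkn2a was at 0.17 in Ser585Gly (adjusted p = 0.448) and rose by 0.48 in wild type (adjusted p = 0.0359, 0.0972 with pairs averaged). Hipk2, a kinase that phosphorylates p53, was higher in Ser585Gly by 0.64 at 12 h, while Ncl (−0.87) and Rps27l (−0.63) were lower at 0 h. These 3 calls were lost with pairs averaged (adjusted p of 0.0530 to 0.134). In all 2 regulators were higher and 0 lower at 12 h, and 1 higher and 2 lower at 0 h. The shares over all probes were 0.918% higher and 0.799% lower at 12 h, and 2.07% and 2% at 0 h.

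**Figure D4:**
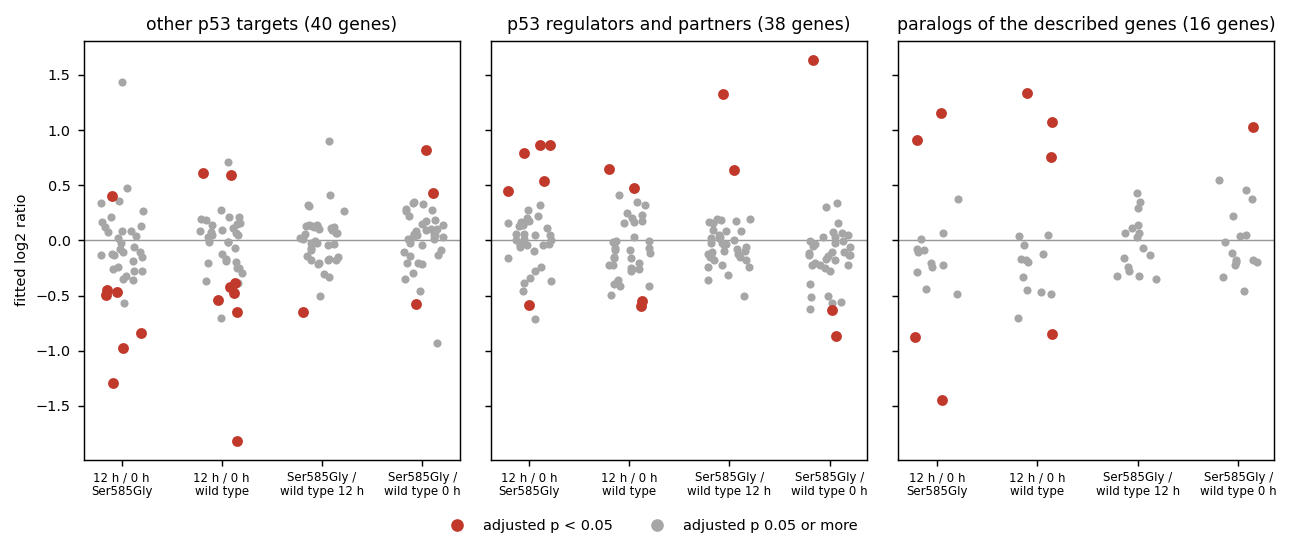
Fitted log2 ratio (vertical axis) of every measured gene of 3 lists, 1 panel per list, in the 4 comparisons (horizontal axis). Red points had an adjusted p under 0.05. Among other targets the red points with time lie mostly below 0, with Btg2 lowest in both lines. The highest grey point for time in Ser585Gly lies at 1.43 (adjusted p = 0.0937), and the 2 highest red points among the regulators are Cdkn2a.

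Paralogs of the 8 genes changed in both directions. Of 16 paralogs measured, 2 rose and 2 fell with time in Ser585Gly, and 3 rose and 1 fell in wild type. Beside these stand 5.74% higher and 4.72% lower of all probes in Ser585Gly, and 5.43% and 4.03% in wild type. Among sestrins, Sesn2 was at 0.38 in Ser585Gly (adjusted p = 0.0681) and rose by 0.75 in wild type (adjusted p = 0.00509), whereas Sesn3 fell, at −0.88 in Ser585Gly and −0.85 in wild type, on both of its probes. In wild type Sesn1 and Sesn3 therefore fell while Sesn2 rose. Gadd45g rose by 1.16 in Ser585Gly (adjusted p = 0.00428) and 1.34 in wild type (adjusted p = 0.00242), while Gadd45a fell in Ser585Gly. Ccng2, the paralog of Ccng1, fell by 1.44 in Ser585Gly (adjusted p = 0.00300) and was at −0.70 in wild type (adjusted p = 0.0529). It was also higher in Ser585Gly at 0 h by 1.03 (adjusted p = 0.0252, 0.0604 with pairs averaged). Phlda1 rose by 0.91 in Ser585Gly and 1.07 in wild type. No gene of the 3 lists passed for the difference of the 2 time responses.

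The genes whose 8 turned ratios ran most like those of a called gene were sought among genes brighter than the array median, by cosine over the 8 arrays. Nearest to Trp53inp1 were Nck1, an adaptor protein (0.984), Smpd1, the acid sphingomyelinase (0.983), and Unc13a, a vesicle priming protein (0.982). Smpd1 fell, at −1.80 in Ser585Gly and −1.63 in wild type. Nearest to Sesn1 were Ccdc88a, an actin-binding protein (0.966), Bcas3, a cytoskeleton-associated protein (0.962), and Ech1, a mitochondrial enzyme of fatty acid breakdown (0.951). Bcas3 was at −0.50 in Ser585Gly and −0.98 in wild type. Nearest to Gadd45a were Rnf103, a ubiquitin ligase (0.967), Ptpn22, a phosphatase of T cell receptor signalling (0.962), and Kif2a, a kinesin that takes microtubules apart (0.961). Among the 8 genes themselves Trp53inp1 had a cosine of 0.80 with Gadd45a and 0.75 with Sesn1, and Sesn1 one of 0.39 with Gadd45a, all over the same 8 arrays.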

How the data were processed

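Total RNA of 4 cell states was measured on 8 two-colour spotted oligonucleotide arrays (23040 spots each). Each array gave a foreground and a local background intensity per dye, per the file headers, and the authors also deposited a table of log2 ratios of Cy5 over Cy3. The submitters' processing notes name limma without a version, with no further step given in the sources used here. Array medians of foreground intensity lay between 631 and 946 for Cy5 and between 795 and 1105 for Cy3, over median backgrounds of 3 to 17 and 51 to 168. Precision is limited by how few arrays there were.

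Probe names were first assigned to the unnamed spots in the deposited order, from the probe numbers. This step was checked against the deposited log2 ratios (per-array correlation 0.948 to 0.996). Of 1012 control probes with a coded place, 94.1% had it as their nearest by values. Symbols followed the recovered 24-pin order, which these matches do not test. Of the placed probes 16642 had 1 symbol, 137 several and 4997 none.

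Intensities were corrected by normexp (offset 50) and loess (span 0.3, control spots at weight 0). limma 3.58.1 in R 4.3.3 (lmFit, eBayes) fitted the 8 arrays in 1 model of mutation, time, interaction and dye effects, leaving 4 residual and 4.35 prior degrees of freedom. The Benjamini-Hochberg adjustment ran over 21776 probes. The genes, lists and tests were chosen with earlier results of these data known. Named were all 8 genes, up to 4 higher and 4 lower called genes per list and comparison by absolute log2 ratio, and the 3 genes of highest cosine to each called gene. Cdkn1a was named outside this rule, after its values were seen. The brightest probe stood for a gene. Alternatives were other background corrections and normalisations, scaling, the deposited table, pairs averaged, no dye term, direct arrays only, a trended prior, no dim probes and each array left out. The fit was tested on simulated data.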

Additional observations from a re-analysis of the deposited data

How the results depend on the processing

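The values of the 8 genes in the 5 comparisons were recomputed under 19 alternatives, 760 values in all. Of these 698 kept their direction and their side of the threshold or moved by less than 1 standard error, 31 moved further without being called, 14 lost a call, 17 gained one and 0 called values changed direction. A sign changed in 24 values that were called in neither setting. The count of genes called was 2 for time in wild type and ran from 2 to 3. For time in Ser585Gly it was 3 and ran from 1 to 4, which is also its range when single arrays were left out, with 1 without either array of that comparison and 4, Mdm2 included, without replicate 1 of Ser585Gly over wild type at 0 h. For Ser585Gly over wild type at 0 h it was 0 and became 1 with background subtraction, with no background correction and with a trended prior, 3 with print-tip loess and with the deposited table, and 0 to 1 with single arrays left out. For Ser585Gly over wild type at 12 h it was 0 and became 1 with the deposited table. For the difference of the 2 time responses it was 0 and became 1 with print-tip loess and with the deposited table. The cause of these changes was not tested. Over all probes 2277 were called for time in Ser585Gly, 2061 for time in wild type, 374 for Ser585Gly over wild type at 12 h, 886 for the same at 0 h and 12 for the difference of the 2 responses. With print-tip loess these counts were 4279, 4077, 994, 2043 and 49, with the deposited log2 ratios 4235, 4175, 2207, 2551 and 90, with pairs averaged 1355, 1075, 156, 290 and 0, and with direct arrays only 1147, 885, 159, 227 and 0. Median centring called 546 between the lines at 0 h and 8 for the difference, scaling of arrays 736 between the lines at 12 h and 1 for the difference, and no dye term 509 at 0 h and 6 for the difference, while background subtraction, no correction and a trended prior called 20, 20 and 21 for the difference. With single arrays left out, the counts ran from 269 to 3429, 411 to 3302, 68 to 627, 110 to 637 and 0 to 5. Of the calls for time in Ser585Gly 54.9% were higher, and 65.0% with median centring. Between the lines at 0 h it was 50.8%, and 41.0% with median centring. The mean over all probes of a gene gives no other value here, since each of the 8 genes has 1 probe. Levels kept within 1 SD in all 32 gene and condition pairs with quantile normalisation over all channels. Replicate numbers stand for dye orientations and were given here, not by the labels, so that no replicate block was fitted.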
